A study of Bos taurus with 12 samples.

Results

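HMOX1 and CDKN1C are a pair of genes whose transcripts varied both between treatments and between repeats of the same treatment in cultured bovine chromaffin cells. They were chosen by their gene symbols, as 2 of 9155 genes with a single symbol on the array, and with their values on these arrays already known, so every difference of theirs below is a description without a test. HMOX1 had 1 probe set and CDKN1C had 3, together 4 of the 24016 probe sets measured.

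Chromaffin cells of the adrenal medulla store and secrete catecholamines. The 4 groups, each on 3 single-colour Affymetrix arrays, were cells given IL6 (interleukin-6; 10 nM, for 24 h), cells given IFNα (the human interferon; 1 nM, also 24 h), cells given histamine (10 µM, 6 h) and untreated cells. The submitters call the triplicates technical, but whether they came from 1 culture or several is not stated in the sources used here, and some repeats of IL6 and IFNα differed strongly. Every SD, SE and p-value therefore measures the spread between these arrays, whose source is unknown. The sources used here do not say how long untreated cells were kept. Markers of the labelled cell type were bright: TH, which makes the precursor of the catecholamines, averaged 13.45 ± 0.07 on the log2 scale in untreated cells, and CHGA, a protein of the secretory granule, averaged 13.62 ± 0.03 (SD, n = 3).

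HMOX1 encodes haem oxygenase 1, the inducible enzyme that opens haem to biliverdin and releases iron and carbon monoxide. Its transcription is known to be held down by the repressor BACH1 and raised by the factor NRF2 (encoded by NFE2L2) when electrophiles, oxidants or haem accumulate, and in many mammalian cells it also answers to low oxygen. CDKN1C encodes p57, an inhibitor of cyclin-dependent kinases of the same family as p21 and p27. It is imprinted in human and mouse, where the maternal copy is the active one, and in mouse development it is required for cells to leave the cell cycle.

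Values are RMA log2 expression values, so a difference of 1 is a change of 2-fold. After IL6, HMOX1 read 8.84, 10.13 and 10.83 on repeats 1, 2 and 3. After IFNα it read 9.68, 9.86 and 12.03, after histamine 10.34, 10.46 and 10.31, and in untreated cells 8.86, 8.77 and 8.77. The histamine and the untreated arrays each lay close together, whereas the IL6 and the IFNα arrays were spread over a wide range, with IFNα repeat 3 the highest of all 12 and IL6 repeat 1 level with untreated cells.

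CDKN1C, on the brightest of its probe sets, read 9.51, 11.93 and 12.76 on IL6 repeats 1, 2 and 3. It read 10.83, 10.86 and 12.98 after IFNα, 10.75, 10.81 and 10.80 after histamine, and 11.02, 11.00 and 10.89 in untreated cells. IL6 repeat 1 was the lowest of the 12 arrays, and the arrays at the upper end of their own groups for HMOX1 (IL6 repeats 2 and 3 and IFNα repeat 3) were the 3 highest of all 12 for CDKN1C. The plot of both genes by array shows this split.

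**Figure D1:**
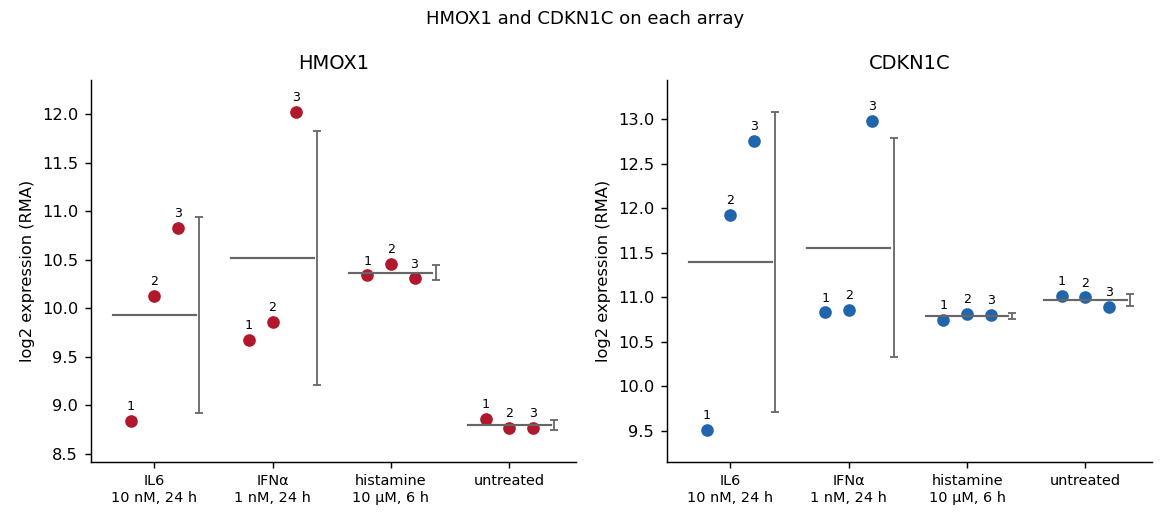
RMA log2 expression of HMOX1 (left) and of the brightest CDKN1C probe set (right) on each array; numbers are repeats, the horizontal line is the group mean and the bar beside it is ± 1 SD (n = 3). Histamine arrays of HMOX1 sit between 10.31 and 10.46, all above the untreated arrays, while IL6 and IFNα arrays of both genes range over 1.99 log2 units or more.

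Within the groups the size of this spread differed sharply. The SD of HMOX1 was 1.01 after IL6, 1.31 after IFNα, 0.08 after histamine and 0.05 in untreated cells (n = 3 each). The SD of CDKN1C was 1.69, 1.23, 0.03 and 0.07 in the same order. For comparison, the median SD over all probe sets was 0.09, 0.08, 0.08 and 0.07, so both genes were ordinary in the histamine and untreated groups. In the IFNα group 3 probe sets had a larger SD than HMOX1 and 5 had a larger one than CDKN1C. In the IL6 group 14 exceeded HMOX1 and 2 exceeded CDKN1C.

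The total variation over the 12 arrays was divided into a part between the 4 group means and a part between repeats of a group. For HMOX1, 49.9% of the sum of squares lay between groups, 31.3% among the IFNα repeats and 18.6% among the IL6 repeats, and the histamine and untreated repeats together held the small remainder. For CDKN1C only 11.8% lay between groups, against 57.5% among the IL6 repeats and 30.6% among the IFNα repeats. The median over all probe sets was 61.7% between groups. With all arrays, differences between groups and between repeats thus made up about equal parts of the HMOX1 variation, and differences between repeats most of the CDKN1C variation.

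The 3 high arrays also stood apart in hypoxia and glycolysis genes, a list of 24 measured genes that holds neither HMOX1 nor CDKN1C. Relative to untreated cells the list averaged 0.09 on IL6 repeat 1, 0.63 on repeat 2 and 0.98 on repeat 3. It averaged -0.06, -0.05 and 0.68 on IFNα repeats 1, 2 and 3. It was 0.20, 0.23 and 0.21 on the histamine arrays and between -0.02 and 0.01 on the untreated arrays. The part of this shift in the values of HMOX1 and CDKN1C was not tested. Because the arrays carry RNA of whole cultures, fewer cells of a type and less RNA per cell cannot be told apart. The 3 comparisons with untreated cells share the same untreated arrays. Each comparison is given with all 12 arrays and without these 3, which leaves 1 IL6, 2 IFNα, 3 histamine and 3 untreated arrays. The 3 were the upper arrays of their own groups for HMOX1 and CDKN1C themselves. The smaller SEs without them therefore follow from leaving them out and are no measure of precision.

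HMOX1 was higher after histamine by 1.57 on the log2 scale (2.97-fold), with means of 10.37 ± 0.08 after histamine and 8.80 ± 0.05 in untreated cells (SD, n = 3 each). All 3 histamine arrays lay above all 3 untreated arrays, with a gap of 1.45 log2 units; 21.3% of all probe sets were separated upward in this comparison. The standard error of the difference was 0.51 with the spread of all 4 groups, which includes the wide IL6 and IFNα repeats, and 0.05 with the spread of these 2 groups alone. The difference stayed between 1.53 and 1.60 when any of the 12 arrays was left out.

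After IFNα, HMOX1 averaged 10.52 ± 1.31, against 8.80 ± 0.05 in untreated cells (SD, n = 3 each), a difference of 1.72 (SE 0.51; 3.30-fold). The 3 IFNα arrays lay above the untreated arrays; 13.3% of all probe sets were separated that way. Much of the mean came from IFNα repeat 3: without the high arrays the IFNα mean was 9.77 (n = 2), and the difference was 0.97 (SE 0.06; 1.96-fold). IFNα repeats 1 and 2 alone were thus above untreated cells by 0.88 and 1.06, while the hypoxia list was slightly below its untreated mean on both. That mean combined genes that differed in direction. SLC2A1, a glucose transporter gene of the list, read 8.18 and 8.13 on these repeats, against 7.78 to 7.98 in untreated cells. PGK1 and ADM were also above all untreated arrays on both. NDRG1 read 8.73 and 8.88, against 9.25 to 9.29, and PGAM1 and ENO1 were also below. The part of these genes in the HMOX1 values was not tested.

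After IL6, HMOX1 averaged 9.93 ± 1.01, against 8.80 ± 0.05 in untreated cells (SD, n = 3 each), a difference of 1.13 (SE 0.51; 2.19-fold). The groups overlapped, since IL6 repeat 1 lay within the untreated range. The difference was 0.68 without IL6 repeat 3 and 1.68 without IL6 repeat 1. With repeat 1 as the single IL6 array, it was 0.04 (SE 0.08, which takes the lone array to vary like the other groups). Ordered by group mean with all arrays, HMOX1 was highest after IFNα, then after histamine, then after IL6, and lowest in untreated cells, and the arrays of the 3 treated groups overlapped one another. Without the 3 arrays the order was histamine (10.37), IFNα (9.77), IL6 (8.84) and untreated (8.80), and the last pair lay within the spread of the untreated arrays.

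After IL6, CDKN1C averaged 11.40 ± 1.69, against 10.97 ± 0.07 in untreated cells (SD, n = 3 each), a difference of 0.43 (SE 0.64) in which 1 IL6 array lay below and 2 above every untreated array. The sign depended on single arrays: the difference was 1.38 without IL6 repeat 1 and -0.25 without IL6 repeat 3. With IL6 repeat 1 as the only IL6 array it was -1.46 (SE 0.06), or 2.75-fold lower than in untreated cells. This value rests on 1 array and has no repeat of its own.

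After IFNα, CDKN1C averaged 11.56 ± 1.23, against 10.97 ± 0.07 in untreated cells (SD, n = 3 each), a difference of 0.59 (SE 0.64) with overlapping arrays. Without IFNα repeat 3 it was -0.12 (SE 0.04 in the fit without the 3 arrays), so the sign turned with that array. After histamine the mean was 10.79 ± 0.03, against 10.97 ± 0.07 in untreated cells (SD, n = 3 each), a difference of -0.18. The histamine arrays lay below the untreated arrays by a gap of 0.08, as 22.4% of all probe sets did in that direction. The other CDKN1C probe sets gave -0.04 and 0.05, with overlapping arrays. The SE of this difference was 0.64 with the spread of all groups and 0.04 with that of these 2 groups alone.

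Between the cytokines, HMOX1 averaged 9.93 after IL6 and 10.52 after IFNα, a difference of -0.59 (SE 0.51), and CDKN1C averaged 11.40 after IL6 and 11.56 after IFNα, a difference of -0.16 (SE 0.64). The arrays of the groups overlapped for both genes. Without the 3 high arrays the differences were -0.93 (SE 0.08) for HMOX1 and -1.34 (SE 0.06) for CDKN1C, from 1 IL6 and 2 IFNα arrays. Leaving out IFNα repeat 3 alone gave 0.16 for HMOX1 and 0.56 for CDKN1C, the opposite sign in both. The plot of differences sets the values with and without these arrays side by side.

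**Figure D2:**
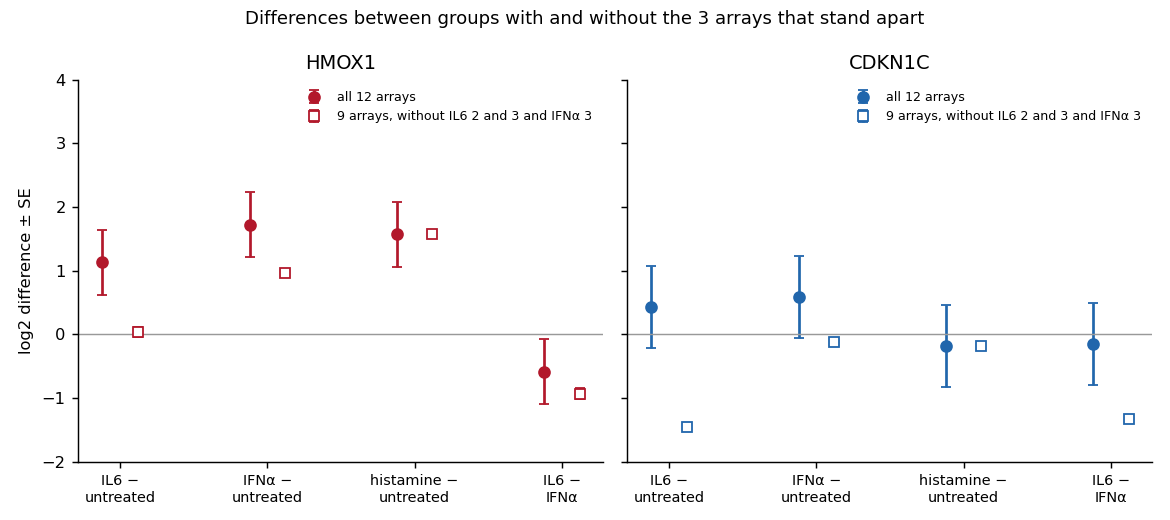
Differences of group means (log2, ± SE of the fit) of HMOX1 (left) and CDKN1C (right) with all 12 arrays (filled circles) and with 9 arrays (open squares). Histamine minus untreated is the same in both, at 1.57 for HMOX1 and -0.18 for CDKN1C, whereas IL6 minus untreated falls to 0.04 for HMOX1 and to -1.46 for CDKN1C without the 3 arrays.

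The differences between repeats of a treatment were large and ran the same way in both genes. HMOX1 was 1.99 higher on IL6 repeat 3 than on IL6 repeat 1 (3.97-fold), and 2.26 higher on IFNα repeat 3 than on the mean of IFNα repeats 1 and 2 (4.79-fold). The corresponding values for CDKN1C were 3.25 (9.51-fold) and 2.13 (4.39-fold). The step between the IL6 repeats was thus larger in CDKN1C than in HMOX1, and the step in IFNα was of similar size in both. Of all probe sets, 46 (0.192%) were higher by at least 1 in both of these contrasts, HMOX1 and the brightest CDKN1C probe set among them, and 29 of the 46 carried a single gene symbol. Over all probe sets the median was -0.01 in each contrast, as normalization to equal array means leads to.

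**Figure D3:**
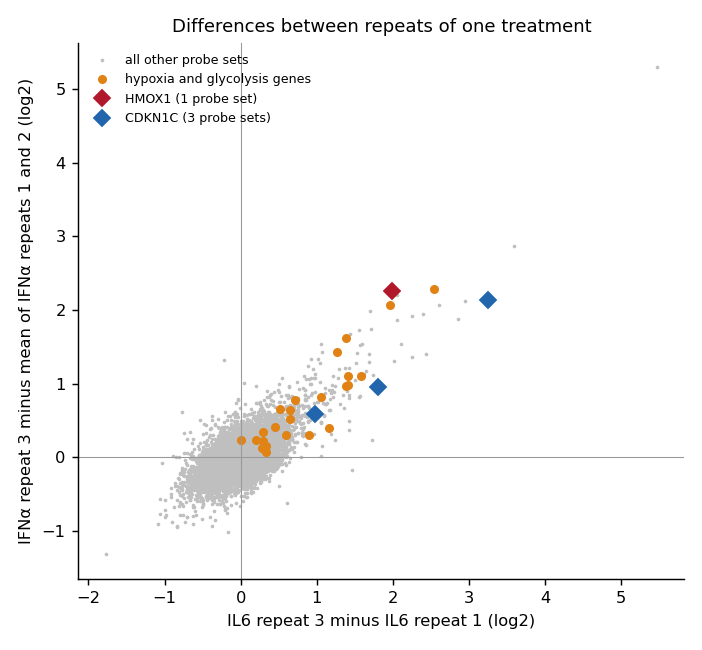
Each point is a probe set: its log2 difference between IL6 repeats 3 and 1 (horizontal) and between IFNα repeat 3 and the mean of IFNα repeats 1 and 2 (vertical). HMOX1 (1.99 and 2.26) and the brightest CDKN1C probe set (3.25 and 2.13) lie far from the main cloud, in the direction in which 6 of 24 hypoxia and glycolysis genes exceed 1 on both axes.

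The other CDKN1C probe sets followed the brightest on a smaller scale. The second by mean level read 6.02, 7.05 and 7.83 on the IL6 arrays, 6.55, 6.64 and 7.55 on the IFNα arrays, 6.41, 6.65 and 6.62 on the histamine arrays, and 6.43, 6.74 and 6.63 on the untreated arrays. The third ran from 5.11 to 6.09 over the 12 arrays, close to the lower quartile of all values (5.02 to 5.11). In both, IL6 repeat 1 was the lowest array and IL6 repeats 2 and 3 and IFNα repeat 3 were the 3 highest. Across the 12 arrays they correlated with the brightest probe set at r = 0.96 for the second and r = 0.93 for the third, as a description over arrays that share their groups. Without the 3 arrays, IL6 minus untreated was -0.58 (SE 0.13) on the second and -0.45 (SE 0.14) on the third.

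Over the deviations of the 12 arrays from their group means, HMOX1 and CDKN1C correlated at r = 0.96, and over the 12 values themselves at r = 0.72. With the mean of the hypoxia list the deviations of HMOX1 correlated at r = 0.99, as did those of CDKN1C, while the values correlated at r = 0.73 for HMOX1 and r = 0.82 for CDKN1C. These correlations describe 12 arrays, in which the 3 high ones carry most of the spread.

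The genes whose patterns were most like those of each member were taken among 6245 genes whose brightest probe set had at least the median level. Over the 12 arrays, HMOX1 was most like UTP3, a ribosome biogenesis factor (r = 0.96), the small GTPase gene RAP2C (r = 0.95), the MAP kinase phosphatase gene DUSP7 (r = 0.93), the glucose transporter gene SLC2A1 (r = 0.93) and the splicing factor gene SRSF3 (r = 0.90). SLC2A1 read 7.79, 8.76 and 9.20 after IL6, 8.18, 8.13 and 9.14 after IFNα, 8.60, 8.52 and 8.73 after histamine, and 7.98, 7.88 and 7.78 in untreated cells. Like HMOX1, it was higher on all histamine arrays than on all untreated arrays and high on the 3 arrays that stood apart. Over the deviations alone, the leading genes were NDRG1, ALDOA, C3, VEGFA and LDHA (r = 0.99 each), of which all but the complement gene C3 are in the hypoxia and glycolysis list.

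VEGFA, the angiogenic growth factor that is a textbook target of hypoxia-inducible factors, followed HMOX1 closely in the IL6 and histamine groups. It read 9.41, 11.17 and 11.95 after IL6, 9.47, 9.49 and 11.76 after IFNα, 10.73, 10.71 and 10.74 after histamine, and 9.48, 9.52 and 9.44 in untreated cells. IFNα repeats 1 and 2 were at the untreated level for VEGFA, whereas HMOX1 was higher on both of them than on any untreated array. SLC2A1, also in the hypoxia list, was like HMOX1 in this. NDRG1 differed from HMOX1 after histamine, where all its arrays lay below the untreated ones: it read 9.04, 9.12 and 9.23, against 9.25, 9.25 and 9.29 in untreated cells.

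Over the 12 arrays, CDKN1C was most like P4HA1, a subunit of collagen prolyl hydroxylase (r = 0.96), the adhesion protein gene NINJ1 (r = 0.95), the neuritin gene NRN1 (r = 0.95), the cell cycle regulator gene RGCC (r = 0.95) and the mitochondrial iron importer gene SLC25A37 (r = 0.93). RGCC read 6.43, 7.54 and 8.54 after IL6, 6.72, 6.66 and 8.23 after IFNα, 6.96, 6.86 and 7.10 after histamine, and 7.02, 6.92 and 7.06 in untreated cells. IL6 repeat 1 was its lowest array too, as it was for CDKN1C, P4HA1, NINJ1 and NRN1. Over the deviations the leading genes were SLC16A3, NR0B1, DENND1A, P4HA1 and TPI1 (r = 0.99 to 1.00). SLC16A3, which encodes a lactate exporter, read 6.16, 8.25 and 9.11 after IL6, against 6.19, 6.27 and 6.20 in untreated cells, so its repeat 1 lay just below the untreated arrays.

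**Figure D4:**
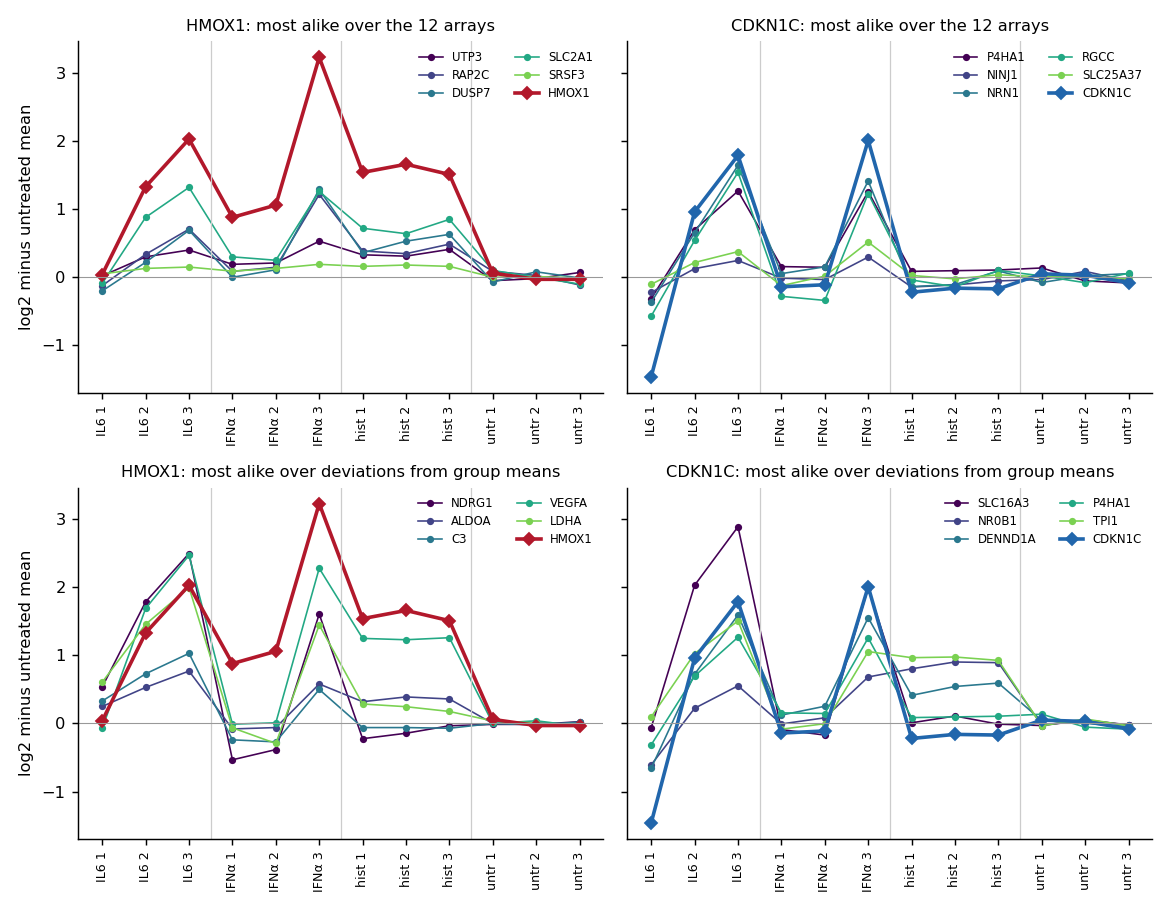
Log2 expression minus the untreated mean on each of the 12 arrays for HMOX1 and CDKN1C (diamonds) and for the 5 genes most like each over the 12 arrays (top) or over deviations from group means (bottom); lines join the points of a gene, and repeats have no order. HMOX1 stands at 1.54, 1.66 and 1.51 on the histamine arrays, where CDKN1C lies just below 0.

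The genes around HMOX1 in haem metabolism, iron handling and the NRF2 response were tested in limma's fit over all 24016 probe sets. Calls needed an adjusted p below 0.05 together with a change of at least 1.5-fold. After histamine, 5 of 23 measured NRF2 regulators and antioxidant targets rose and 1 fell, with a median difference of 0.23, against -0.002 over all probe sets; 2.99% of all probe sets were called higher and 2.71% lower. SRXN1, which encodes the peroxiredoxin repair enzyme sulfiredoxin, read 10.23, 10.31 and 10.48 after histamine, against 9.31, 9.36 and 9.35 in untreated cells, a rise of 1.00 (SE 0.11; limma, adjusted p = 9.94e-06). All 3 histamine arrays lay above all untreated ones.

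TXNRD1, thioredoxin reductase 1, rose by 0.87 (SE 0.06; limma, adjusted p = 4.18e-08) after histamine. UGDH, GSR and TXN rose by 0.80, 0.73 and 0.60, and EPHX1, the microsomal epoxide hydrolase gene, fell by 0.75. These 6 calls held when any 1 of the 12 arrays was left out. NQO1, a quinone reductase gene and a standard NRF2 target, had a difference of -0.37 (limma, adjusted p = 8.42e-05), opposite in sign to HMOX1 and too small for a call. NFE2L2, the gene of NRF2 itself, had -0.15 and KEAP1, the gene of its inhibitor, -0.14, and neither was called.

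After IFNα limma called none of the 23 genes, of which 12 had an unadjusted p under 0.05; the background was 2.18% of all probe sets called higher and 1.18% lower. SRXN1 read 9.62, 9.79 and 10.21 after IFNα, against 9.31, 9.36 and 9.35 in untreated cells, and was called without IFNα repeat 1, with a difference of 0.66. After IL6 1 of 23 rose and 1 fell, with 1.44% of all probe sets called higher and 0.949% lower. GPX2, a glutathione peroxidase gene, rose by 0.68 (SE 0.07; limma, adjusted p = 1.73e-05) and EPHX1 fell by 0.66. Without the 3 high arrays 2 rose and 2 fell, GSR (0.59) and NQO1 (-0.60) being added. NQO1 read 8.81, 8.86 and 8.87 after IL6 and 9.63, 9.69 and 9.76 after IFNα, and was called lower between the cytokines (difference -0.85, SE 0.05; limma, adjusted p = 1.41e-08), where 3.29% of all probe sets were called lower and 2.82% higher.

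None of the 23 genes exceeded a difference of 1 in both contrasts between repeats, and their medians there were 0.01 and 0.06. The largest were 0.53 in MAFF between IL6 repeats 3 and 1 and 0.51 in SRXN1 between IFNα repeat 3 and the mean of the others.

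Of 13 measured genes of haem synthesis and breakdown, none was called by limma after histamine, IFNα or IL6 (6, 6 and 4 had an unadjusted p under 0.05). HMOX2, the constitutive haem oxygenase, read 9.13, 9.14 and 8.85 after histamine, against 8.42, 8.59 and 8.48 in untreated cells, a difference of 0.54 (SE 0.07; limma, adjusted p = 5.90e-05) that missed the fold minimum. It passed without untreated repeat 2 or histamine repeat 3, at 0.59 to 0.64. Its values on the arrays that stood apart (8.72 and 8.69 after IL6, 8.22 after IFNα) lay close to those of the other arrays of their groups (8.65 after IL6, 8.19 and 8.28 after IFNα). FECH, which inserts iron into protoporphyrin, had -0.49 after histamine (limma, adjusted p = 6.40e-06). The biliverdin reductase genes BLVRA and BLVRB, whose products use the biliverdin that HMOX1 releases, had -0.21 and -0.05 after histamine and -0.28 and 0.36 after IFNα.

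In iron handling, 1 of 9 measured genes rose after histamine and none fell. It was SLC39A14, a zinc and iron importer, with a rise of 0.81 (SE 0.06; limma, adjusted p = 3.54e-07). After IL6, STEAP3, a ferrireductase of the transferrin cycle, rose by 1.31 (SE 0.10; limma, adjusted p = 7.4e-07), and after IFNα none was called by limma, with 4 at an unadjusted p under 0.05. The ferritin genes FTH1 and FTL, which store the iron set free from haem, had 0.06 and -0.05 after histamine and were not called in any of these comparisons. Both were bright on all arrays, with untreated means of 13.73 for FTH1 and 13.11 for FTL where no value exceeded 14.14, so a small difference there does not show stability.

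**Figure D5:**
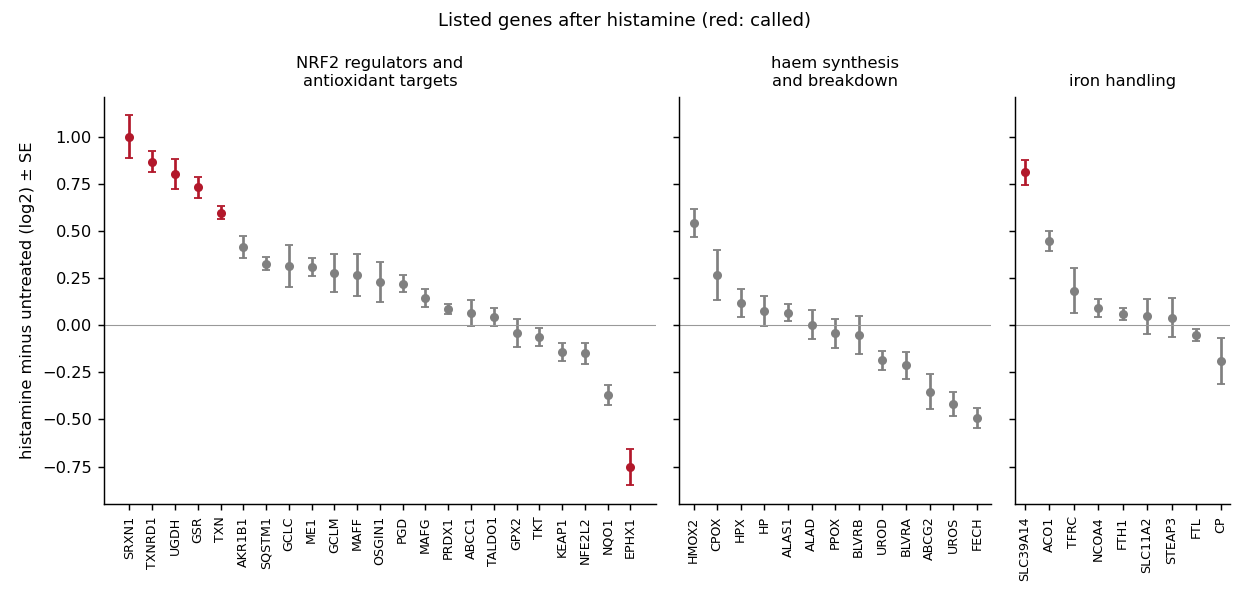
Histamine minus untreated (log2, ± SE of the fit, 3 arrays a group) for 23 NRF2 regulators and antioxidant targets, 13 genes of haem synthesis and breakdown and 9 of iron handling; red points were called. SRXN1 is highest at 1.00, HMOX2 leads its group at 0.54 without a call, and EPHX1 is lowest at -0.75.

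Heat shock and metallothionein genes, which often move with HMOX1 under stress, gave 3 rises and 1 fall among 19 after histamine. The chaperone regulator BAG3 rose by 0.83, HSPH1 by 0.66 and DNAJB1 by 0.61, and ATF3 fell by 0.73. DNAJB1 missed the fold minimum without histamine repeat 2, at 0.57. After IL6, ATF3 and MT2A rose by 1.07 and 0.61, and after IFNα SESN2 and MT2A rose by 0.89 and 0.69 and ATF3 fell by 0.83. Without the 3 high arrays MT2A was no longer called after IL6 (0.52) or IFNα (0.58). The medians of the list between repeats were -0.06 after IL6 and 0.04 after IFNα.

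Around CDKN1C, none of 5 measured CDK inhibitors and pocket proteins was called by limma after IL6, IFNα or histamine, with 2, 1 and 4 at an unadjusted p under 0.05. CDKN1A, which encodes the related inhibitor p21, read 10.91, 10.92 and 10.87 after IL6, 11.38, 11.42 and 11.29 after IFNα, 10.46, 10.61 and 10.74 after histamine, and 10.99, 11.00 and 10.92 in untreated cells. Its IL6 arrays lay close together, and its differences from untreated were -0.07, 0.39 and -0.37. CDKN2C, an inhibitor of CDK4 and CDK6, was called lower after IL6 only without untreated repeat 2, at -0.60. CDKN1B, the third member of the family, was listed but had no probe set with that single symbol, so it was not measured.

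Of 13 cyclins and cyclin-dependent kinases none was called by limma in any of the 3 comparisons with untreated cells (5 after IL6, 4 after IFNα and 6 after histamine had an unadjusted p under 0.05). Without the 3 high arrays 1 of them fell after IL6. CCNE2, the cyclin E2 gene, was called lower on leaving out untreated repeat 2 (after IL6 and after histamine), IL6 repeat 2 or histamine repeat 3, at -0.66 to -0.62. Of 12 proliferation genes 1 fell after histamine, MCM7, a subunit of the replicative helicase, by 0.86, and limma called none after IL6 or IFNα (7 and 4 at an unadjusted p under 0.05). Their medians between repeats were -0.17 after IL6 and -0.07 after IFNα, against 3.25 and 2.13 for CDKN1C.

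Imprinted genes were listed because CDKN1C belongs to an imprinted cluster in human and mouse. Of 19 measured, PEG3 fell by 0.78 after IL6, IGF2R fell by 0.71 after IFNα, and MEST and PEG10 rose by 2.27 and 0.81 after histamine, each called by limma. For genes of the same cluster in human and mouse, between IL6 repeats 3 and 1, KCNQ1 had 0.17 on its brightest probe set, PHLDA2 0.27, SLC22A18 0.20 and CD81 -0.05. PHLDA2 had 0.69 between IFNα repeat 3 and the mean of the others, in the direction of CDKN1C. KCNQ1 (-0.035), SLC22A18 (-0.235) and CD81 (-0.09) had the opposite sign there. KCNQ1, PHLDA2 and SLC22A18 were dim, at 4.93 to 5.98, near the lower quartile of the arrays, where RMA compresses differences. PLAGL1, a zinc finger gene that regulates an imprinted network in mouse and is named here after its values were seen, read 10.32, 11.10 and 11.56 after IL6, 10.45, 10.45 and 11.41 after IFNα, 10.24, 10.37 and 10.35 after histamine, and 10.90, 10.91 and 10.89 in untreated cells. It was the gene of this list with the largest differences between repeats, 1.24 and 0.96.

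CDKN1C is known to be raised by glucocorticoids in several human cell types, so 9 measured glucocorticoid-responsive genes were set beside it. After IL6, CEBPD and ERRFI1 rose by 1.85 and 0.64, and the ERRFI1 call was lost on leaving out any untreated array, IL6 repeat 2 or 3 or histamine repeat 1 or 2, at 0.43 to 0.69. After histamine ERRFI1 and DUSP1 rose by 1.15 and 0.70. SGK1 fell by 0.65 after IFNα, a call lost without IFNα repeat 3 (-0.44) or untreated repeat 1 or 3. Between IL6 repeats 3 and 1 the 9 genes had a median of -0.22, and between IFNα repeat 3 and the mean of the others -0.13. In these contrasts SGK1 had -0.80 and -0.615, opposite to CDKN1C, and ERRFI1 had 0.85 and 0.785, in its direction. FKBP5, a standard target of the glucocorticoid receptor, read 5.18, 4.88 and 4.76 after IL6, against 5.21, 4.91 and 4.81 in untreated cells. These values lay near or below the lower quartile of the arrays, where RMA compresses differences, so their likeness does not show stability. NR3C1, the receptor gene, had -0.58 after IL6, 0.35 after IFNα and -0.53 after histamine, each below the fold minimum; after IL6 it was called without the 3 high arrays (-0.61) or without IL6 repeat 3 alone (-0.59).

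Of the 24 hypoxia and glycolysis genes 6 rose after IL6 and none fell, with a median of 0.49, but without the 3 high arrays 3 rose and 1 fell, with a median of 0.10. The count was 15 without IL6 repeat 1, and 2 when IL6 repeat 2 or 3 or any untreated array was left out. NDRG1 and LDHA rose by 1.61 (SE 0.48) and 1.35 (SE 0.36), and without the 3 arrays NDRG1 was not called (0.54). Genes of the list differed on IL6 repeat 1. EGLN3 read 5.74, 6.22 and 6.80 after IL6, against 4.69 to 4.81 in untreated cells, and PKM 9.92, 9.91 and 9.93, against 9.06 to 9.26. Both were thus above untreated cells on repeat 1 too, whereas VEGFA was not (9.41, against 9.44 to 9.52). After IFNα limma called none, with 4 at an unadjusted p under 0.05. After histamine 3 rose and none fell, namely PFKFB3 by 1.08, TPI1 by 0.96 and P4HA2 by 0.64, and without the 3 arrays 6 rose, VEGFA among them (1.25). Leaving out single arrays gave 1 to 6 calls in either direction. Without untreated repeat 2, PFKFB3 was the 1 call left, and without histamine repeat 3 it was TPI1. Without untreated repeat 3 no gene rose, and ALDOC, a glycolytic aldolase gene, was called lower. Between repeats, 6 of 24 exceeded 1 in both contrasts, namely LDHA, NDRG1, P4HA1, PFKFB3, TPI1 and VEGFA.

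Markers of other cells that express HMOX1 or CDKN1C were measured on the same arrays. HMOX1 is high in macrophages. The mean of 12 macrophage and leukocyte markers relative to untreated cells was between 0.19 and 0.28 on the IL6 arrays, between -0.03 and 0.05 on the IFNα arrays, between 0.12 and 0.19 on the histamine arrays and between -0.04 and 0.03 on the untreated arrays. CD14 and CORO1A rose and ITGB2 fell after IL6, none was called by limma after IFNα (6 at an unadjusted p under 0.05), and CORO1A rose after histamine. The defining markers PTPRC (4.50 to 4.77), TYROBP (4.67 to 5.16) and ITGAM (3.60 to 4.12) lay near or below the lower quartile of the arrays throughout. Between IL6 repeats 3 and 1 the 12 markers had a median difference of 0.12, with CSF1R highest at 0.58 and CD14 lowest at -0.49, and between IFNα repeat 3 and the mean of the others the median was -0.04. The part of these markers in the values of HMOX1 was not tested.

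CDKN1C is also expressed in the adrenal cortex. The mean of 11 cortex markers was between -0.44 and -0.42 on the IL6 arrays, between -0.58 and -0.51 on the IFNα arrays and between 0.38 and 0.41 on the histamine arrays, relative to untreated cells (-0.01 to 0.02). Of these markers 3 fell after IL6, 5 fell after IFNα and 2 rose after histamine, CYP11A1 by 0.93 and HSD3B1 by 0.83. The list mean moved little between repeats of a group, but CYP11A1, the cholesterol side-chain cleavage enzyme gene, was lower by 0.44 on IL6 repeat 3 than on repeat 1 and by 0.47 on IFNα repeat 3 than on the mean of the others. Cortex markers were higher where HMOX1 was higher after histamine and lower where it was higher after IFNα, and their part in those differences was not tested. The 8 measured chromaffin markers were on average higher after histamine, as HMOX1 was, while CDKN1C was slightly lower there. Their mean relative to untreated cells was 0.51, 0.50 and 0.37 on histamine repeats 1, 2 and 3, where 3 of 8 rose, namely PNMT by 2.29, SLC18A2 by 0.77 and SCG2 by 0.73. It was -0.26, -0.08 and 0.05 over the IL6 repeats in the same order, where SLC18A2, the vesicular monoamine transporter gene, rose by 0.85 and PNMT, which makes adrenaline, fell by 0.71. The PNMT call after IL6 was lost on leaving out any untreated array, IL6 repeat 1 or 2 or histamine repeat 1 or 2, at -0.76 to -0.48. Over IFNα repeats 1, 2 and 3 the mean was 0.03, -0.03 and 0.30, and limma called none, with 3 at an unadjusted p under 0.05. PNMT was higher by 0.85 on IL6 repeat 3 than on repeat 1 and by 0.92 on IFNα repeat 3 than on the mean of the others. The corresponding values were 0.49 and 0.91 for SLC18A2 and 1.05 and 0.48 for DBH, all in the direction of HMOX1 and CDKN1C. TH, CHGA, CHGB, SCG2 and PENK, which complete the list, had -0.08 to 0.11 in these contrasts. These 5 genes read 13.05 to 14.08 where no value exceeded 14.14, and RMA compresses differences of very bright probe sets. Their small differences therefore do not show stability. The medians of the 8 markers were 0.065 and 0.07. The part of these markers in the values of both genes was not tested.

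Of the other cell type lists, limma called 1 of 10 endothelial markers lower after IL6 (EMCN, missing the fold minimum without untreated repeat 3 at -0.56) and 1 after IFNα, and 1 higher (CLDN5, missing it without histamine repeat 3 at 0.53) and 1 lower after histamine. Of 12 fibroblast and mural markers 1 rose and 1 fell after IL6, 1 fell after IFNα and 1 rose after histamine. No Schwann cell marker of 6 and no erythrocyte marker of 7 was called by limma after IL6, IFNα or histamine. In that order, 3, 2 and 3 Schwann cell and 2, 2 and 1 erythrocyte markers had an unadjusted p under 0.05. The erythrocyte markers averaged 4.93 to 5.10 on the arrays, near the lower quartile, where RMA compresses differences. The Schwann cell markers SOX10, MBP and ERBB3 were dim too, at 5.05 to 5.86.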

How the data were processed

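Biotin-labelled RNA was measured on Affymetrix arrays for cattle with a single colour, per the labels' protocols. Deposited log2 values of 24128 probe sets on 12 arrays were made by the authors with RMA, per the submitters' processing notes, whose version the sources used here do not give. RMA compresses differences of very dim and very bright probe sets. The log2 unit follows from the range, 2.88 to 14.14. Array means were equal at 6.79, correlations within groups ran from 0.993 to 0.998, and the values carry no detection calls.

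After 112 control probe sets were left out, 24016 were tested with limma 3.58.1 in R 4.3.3: group means over all 12 arrays, eBayes with a trend, and Benjamini-Hochberg adjustment over all probe sets. A gene was represented by its brightest probe set. Symbols came from the platform annotation (13292 probe sets with 1 symbol, 86 with several, 10638 with none), updated by gene identifier for 13263; of 257 listed genes 212 were measured. The procedure was checked on simulated data. The members, the lists and the alternatives were chosen with earlier results of these data known. Named were the members, 7 fixed genes and the 5 genes most like each member. Some of the called list genes with non-overlapping arrays were also named (up to 4 a list and comparison), and others are given only in the counts. Of the fixed genes, BACH1 and CDKN1B had no probe set with their single symbol and were not measured. Other genes named are marked or illustrate a list. Figures used matplotlib 3.10.9 in Python 3.11.15. No sequences of the members were used here.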

Additional observations from a re-analysis of the deposited data

How the results depend on the processing

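For each comparison the number of called probe sets stayed within 1.5 times of 573 after IL6, 807 after IFNα, 1369 after histamine and 1468 between IL6 and IFNα under other eBayes settings, array weights, a filter on dim probe sets, median centring, quantile normalization, fits of 2 groups, the replicate block and each array left out. The fold minimum moved it: at 1.2-fold 2969, 2928, 5723 and 4932 were called, and at 2-fold 149, 324, 254 and 547. With the 3 high arrays (IL6 2 and 3, IFNα 3) left out HMOX1 had 0.04 and CDKN1C -1.46 after IL6, and the share of variation between groups was 99.2% and 99.3%, which follows from leaving out arrays that were high for these genes and keeping 1 IL6 array. The mean of all CDKN1C probe sets gave -0.059 after histamine in place of -0.18. Between IL6 and IFNα the signs of both genes were opposite with array weights (0.08 and 0.78) and with medians of 3 arrays (0.27 and 1.07), and CDKN1C had -0.14 after IFNα with medians. The replicate block left every difference of HMOX1 and CDKN1C as it was, with SEs of 0.41 and 0.52 in place of 0.51 and 0.64; it raised the hypoxia genes called after histamine to 6 and changed no other list count by over 1.5 times. Same-numbered arrays of different groups correlated in their deviations at -0.07 to 0.60, above every other number in 13 of 18 pairs but not over 0.1 in all, so the numbers were not taken to pair the arrays. IL6 and IFNα repeat 3 correlated at 0.60 and their repeats 1 at 0.53. The 3 arrays a group, called technical by the submitters, limit the precision.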
